A study of Mus musculus with 12 samples.

Results

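The genes described here are 20 genes of glycolysis and 17 genes of sterol synthesis, 37 in all, measured in 3 sorted subsets of the CD4 T lymphocytes that lie within the epithelium of the mouse small gut. They were chosen by name, and a probe belonged to a gene when the array table named it so, ignoring case. The table holds 25697 probes, of which 47 carry the name of 31 of the 37 genes. Hk2, Gpi1, Ldhb, Hmgcs1, Mvk and Fdft1 had no probe under that name and are not analysed here. The table's Pkm2 is now Pkm, and its Sc4mol is now Msmo1.

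The study sorted the cells by a green fluorescent protein reporter of ThPOK, the transcription factor that holds T cells in the helper lineage, and by surface CD8a. The subsets are ThPOK+CD8a-, ThPOK-CD8a- and ThPOK-CD8a+ cells, called here ThPOK+, CD8a- and CD8a+ cells, all of them B6-ThPOK-GFP reporter cells. The host labelled WT is the reporter mouse itself without an experiment. The host labelled TR is a RAG-/- recipient, an animal without T and B lymphocytes of its own, into which naive CD4 T cells from reporter mice were transferred to model colitis. The labels give an age of 10 to 12 weeks in both. Each of the 6 groups has 2 arrays, and the 3 arrays of 1 host and 1 replicate number are called a set here, so that there are 4 sets. Nothing in the labels says that replicates came from separate animals, or whether animals were pooled, so the spread behind the p-values is that of these samples and may be technical.

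Glycolysis splits glucose into pyruvate in the cytosol and yields energy without oxygen. T cells raise it when they are activated, under control of factors such as Myc and the hypoxia-inducible factor Hif1a, and Th17 helper cells are known to depend on it. Sterol synthesis builds cholesterol from acetyl-CoA through mevalonate and squalene, and dividing cells need it for membranes. Its genes are switched on together by the factor Srebf2 when membrane cholesterol is low, and Insig1 holds that factor back when cholesterol is plentiful.

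The promoters of the members are shown first, since both pathways are known for control at this level. RefSeq sequence of build GRCm38.p6 gave a window of 300 bases, from 250 before to 50 after the start, for 31 starts of 19 glycolysis genes and for 17 starts of 14 sterol genes. Both strands were searched for 4 sets of letters. CCAAT, the box bound by the factor NF-Y, was in 14 of 17 sterol windows (82.4%) and in at least 1 window of all 14 sterol genes that have one. It was in 35.5% of glycolysis windows and in 37.4% of all 32851 windows of the genome's genes. ACGTG, the core of the element bound by hypoxia-inducible factors, was in 14 of 31 glycolysis windows (45.2%) and in 12 of 19 genes, against 17.6% of sterol windows and 19.6% of all windows. CACGTG, the E-box, contains ACGTG and was in 6.45% of glycolysis, 17.6% of sterol and 7.15% of all windows. TCACNCCAC, a strict form of the sterol regulatory element, was in 2 glycolysis windows, 1 sterol window and 1.24% of all windows. A match is only a run of letters in the window, and none of these shares was tested.

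Parts of 4 promoters follow because their genes are among those described below. Each is the 250 bases before the start on the plus strand, which lies at chr7:46845554-46845803 for Ldha, chr4:119108495-119108744 for Slc2a1, chr13:8885356-8885605 for Idi1 and chr10:76531355-76531604 for Lss. Capitals mark ACGTG, or CACGT where it lies on the other strand, in the promoters of Ldha, the lactate dehydrogenase, and Slc2a1, a glucose transporter.
Ldha: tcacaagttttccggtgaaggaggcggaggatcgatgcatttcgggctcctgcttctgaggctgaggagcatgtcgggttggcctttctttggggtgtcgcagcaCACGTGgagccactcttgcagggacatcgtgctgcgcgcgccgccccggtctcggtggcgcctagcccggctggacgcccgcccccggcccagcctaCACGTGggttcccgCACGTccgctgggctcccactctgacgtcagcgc
Slc2a1: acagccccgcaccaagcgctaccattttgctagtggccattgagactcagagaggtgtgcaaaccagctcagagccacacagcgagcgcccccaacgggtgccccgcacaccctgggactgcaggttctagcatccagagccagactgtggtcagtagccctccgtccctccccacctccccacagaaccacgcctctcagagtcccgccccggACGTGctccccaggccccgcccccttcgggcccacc
Capitals mark CCAAT, which reads ATTGG because it lies on the other strand, in the promoters of Idi1, an isomerase of the mevalonate pathway, and Lss, which closes the first sterol ring.
Idi1: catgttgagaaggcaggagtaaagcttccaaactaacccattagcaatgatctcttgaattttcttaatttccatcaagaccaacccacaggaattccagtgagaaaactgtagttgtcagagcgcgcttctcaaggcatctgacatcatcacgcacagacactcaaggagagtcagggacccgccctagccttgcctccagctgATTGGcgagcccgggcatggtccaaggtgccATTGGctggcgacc
Lss: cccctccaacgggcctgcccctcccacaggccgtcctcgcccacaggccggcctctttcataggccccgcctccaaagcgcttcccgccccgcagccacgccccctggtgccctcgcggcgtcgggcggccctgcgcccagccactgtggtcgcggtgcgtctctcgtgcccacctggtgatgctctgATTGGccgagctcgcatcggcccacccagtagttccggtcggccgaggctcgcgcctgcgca
Ldha holds 5 matches on both strands together. Those within CACGTG overlap in pairs because CACGTG reads the same on either strand, and the match 34 bases before the start lies alone. Slc2a1 holds 1 match, Idi1 holds 2 and Lss holds 1.

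The 12 arrays split by replicate number before they split by subset. Replicate 1 arrays had a median raw signal of 113.6 to 130.8 and 12024 to 13091 detected probes, and replicate 2 arrays a signal of 206.7 to 246.2 and 6721 to 8195 detected probes. The number of arrays limits the precision. The 2 deposited tables give replicate 1 to opposite hosts, so that WT and TR in replicate 1 are names as in the intensity table and may be exchanged; comparisons of subsets do not depend on this. Of 12 T cell genes, 11 were measured and 9 were detected on all 12 arrays, Cd4 among them. Markers of gut epithelium were not even across the arrays. Over 14 of 18 epithelial markers the mean log2 signal was 9.66 and 7.49 in the WT ThPOK+ cells, 7.13 and 6.14 in the WT CD8a- cells, 7.50 and 9.34 in the WT CD8a+ cells (replicates 1 and 2), and 5.87 to 6.25 on the 6 TR arrays. The 13 of 18 Paneth and goblet cell markers measured had means of 6.21 to 9.77 on the WT arrays and 5.29 to 6.68 on the TR arrays. Of both lists, Pla2g2a was detected on no array. Over 4 of 6 erythroid markers the mean was 6.05 to 7.99 on the WT arrays and 5.22 to 6.05 on the TR arrays. Of 5 markers of gamma-delta and CD8ab T cells 1 was measured. It read 6.90 and 7.27 in the WT CD8a+ cells and 5.08 to 6.17 on the other arrays. Means of B and plasma cell markers were 5.26 to 6.90, and of myeloid markers 5.35 to 6.29. The part of such cells in the members' signals was not tested. Over 15 of 18 proliferation genes the mean was 7.08 to 8.10, with no subset apart.

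A probe was kept if its signal was above background, at a detection p under 0.05, on at least 2 arrays, and the brightest kept probe stood for a gene. All signals below are normalized log2 intensities, on which a difference of 1 is a doubling. By this rule 29 of the 31 members with a probe were measured, 15 of glycolysis and 14 of sterol synthesis, while Aldoc, an aldolase, and Pgk1, a kinase of the lower pathway, were detected on 0 of 12 arrays. Of the 29, 9 glycolysis and 6 sterol genes were detected on all 12 arrays. The subsets were compared by limma over all 12 arrays with the set as a block, and p-values were adjusted by Benjamini and Hochberg over all 10612 genes tested. The comparisons share arrays, so that a low ThPOK+ value moves both comparisons with ThPOK+ cells.

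No gene of either pathway passed the threshold of 0.05 between any pair of subsets. Between CD8a+ and ThPOK+ cells 0 of 15 glycolysis genes and 0 of 14 sterol genes passed, where 0.565% of all genes did. Between CD8a- and ThPOK+ cells 0 members passed, against 0.0565% of all genes. Between CD8a+ and CD8a- cells 0 members passed, and 0% of all genes did, with 541 genes (5.1%) at an unadjusted limma p under 0.05. Under that unadjusted limit were 3 members in the first comparison (Pfkp, Ldha and Lss), where 9.79% of all genes were, 6 in the second (Pfkp, Pfkm, Ldha, Slc16a3, Pmvk and Lss), where 8.65% of all genes were, and 2 in the third (Pfkm and Srebf2). With the epithelial markers as a covariate 0 members passed in these comparisons, and the smallest limma adjusted p of a member in the first was 0.148. A gene that misses the threshold is not shown to be equal, so intervals are given with the values. In sorted cells measured in bulk, a lower signal in each cell and a smaller share of cells with the transcript cannot be told apart.

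The glycolysis genes lay on both sides of 0, and more lay below it than above it against ThPOK+ cells. Their median log2 difference between CD8a+ and ThPOK+ cells was -0.0428, with 6 genes above 0 and 9 below, from -0.56 for Pdk1 to 0.59 for Pfkp, beside a median of 0.00338 over all genes. The 95% interval lay within a doubling either way for 11 of the 15. Between CD8a- and ThPOK+ cells the median was -0.152, with 4 above 0 and 11 below, from -0.52 to 0.52, and 12 intervals lay within a doubling. Of all genes, 50.6% were above 0 in the first of these comparisons and 50.9% in the second. In the second, 4 glycolysis genes (Pfkm, Aldoa, Ldha and Pdk1) were lower in 4 of 4 sets, as were 8.48% of all genes. Slc16a3 was higher in 4 of 4, as were 9.58% of all genes. Between CD8a+ and CD8a- cells it was 0.0738, with 9 above 0 and 6 below (48.7% of all genes were above 0), and 13 intervals lay within a doubling. With 1 array left out this last median ran from 0.0209 (without WT CD8a- replicate 2) to 0.108, and the first from -0.134 (without TR CD8a+ replicate 1) to -0.0101 (without TR CD8a+ replicate 2).

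**Figure D1:**
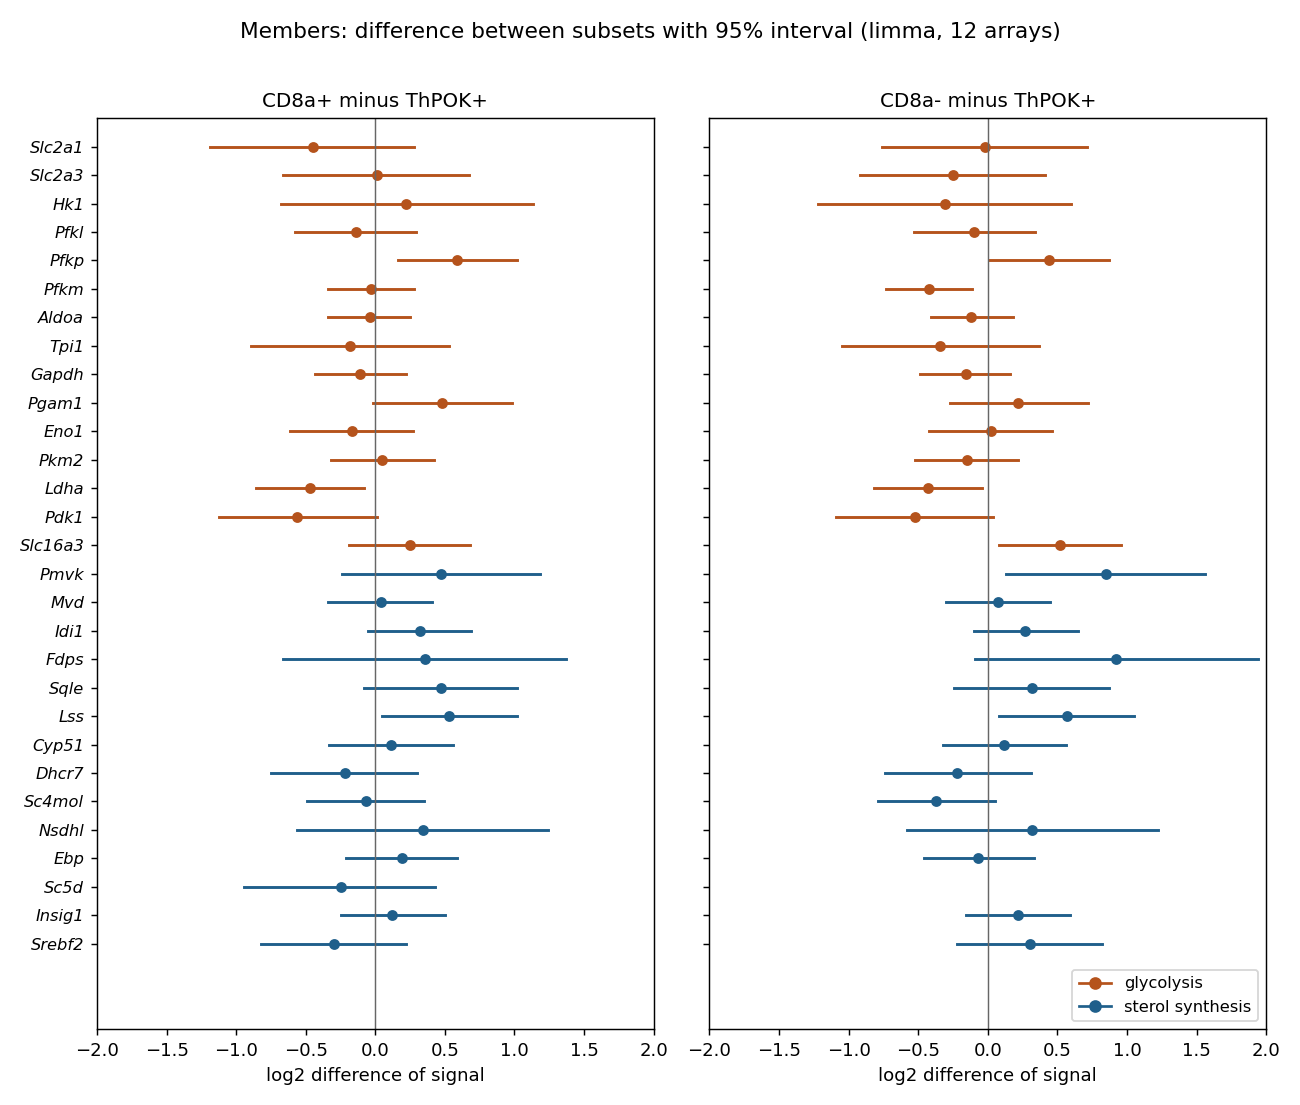
Log2 difference of signal (x axis) for each measured member (y axis) between CD8a+ and ThPOK+ cells (left) and between CD8a- and ThPOK+ cells (right). Points are limma estimates from 12 arrays and lines their 95% intervals. Glycolysis genes are brown and sterol genes blue. Sc5d is not drawn on the right because it was detected on no CD8a- array. Pfkp, Ldha and Lss are the 3 genes whose interval leaves out 0 on the left, and none passed the threshold after adjustment.

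Glucose enters T cells through the transporters Slc2a1 and Slc2a3. In the order WT replicate 1, WT replicate 2, TR replicate 1 and TR replicate 2, which is kept below, Slc2a1 read 9.14, 8.73, 8.5 and 9.14 in ThPOK+ cells, 9.62, 8.67, 8.30 and 8.83 in CD8a- cells, and 9.25, 6.99, 8.5 and 8.97 in CD8a+ cells. One CD8a+ array, WT replicate 2, stood far below the rest, and the other 11 arrays overlapped between subsets. On that array the epithelial markers were high (9.34). On WT ThPOK+ replicate 1 they were higher still (9.66), and Slc2a1 read 9.14 there. The part of epithelium in the low Slc2a1 signal was not tested. The difference between CD8a+ and ThPOK+ cells was -0.45 ± 0.33 (SE, limma adjusted p = 0.717), and it was -0.0254 without that array and -0.229 without WT ThPOK+ replicate 2. Slc2a3 had means of 8.45, 8.20 and 8.46 in ThPOK+, CD8a- and CD8a+ cells, with SDs of 0.31 to 0.81 over 4 arrays each.

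Hexokinase traps glucose in the cell. Hk1 was detected on 11 of 12 arrays and read 6.29, 7.14, 6.81 and 6.96 in ThPOK+ cells, 6.29, 5.52, 6.96 and 7.19 in CD8a- cells, and 7.71, 7.05, 6.38 and 6.95 in CD8a+ cells. By the names used here it was higher in CD8a+ than in CD8a- cells in both WT sets and lower in both TR sets. With the hosts of replicate 1 exchanged, each host would hold a set of either direction. Over the 4 sets the difference was 0.53 ± 0.40 (limma adjusted p = 0.9), and it was 0.146 without WT CD8a- replicate 2. Omitting the CD8a+ array of replicate 1 gave 0.184 for the WT array and 0.826 for the TR array.

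Phosphofructokinase sets the pace of the pathway, and 3 of its genes were measured. Pfkp, the platelet form, read 9.68, 9.43, 9.21 and 10.25 in ThPOK+ cells, 9.97, 10.12, 10.04 and 10.20 in CD8a- cells, and 10.09, 10.15, 10.35 and 10.33 in CD8a+ cells. Its signal was higher in CD8a+ than in ThPOK+ cells in all 4 sets, as it was for 9.04% of all genes, and 3 of the 4 ThPOK+ arrays lay below every other array, while TR ThPOK+ replicate 2 lay among them. The difference of 0.59 ± 0.19, or 1.5-fold, had the smallest adjusted p of all members in this comparison and did not pass (limma adjusted p = 0.308). A second Pfkp probe gave 0.56. Against ThPOK+ cells the CD8a- cells differed by 0.44 ± 0.19 (limma adjusted p = 0.566), and in 3 of 4 sets were higher. For that difference the second probe gave 0.18 ± 0.21.

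Pfkm, the muscle form, was detected on 9 arrays, 3 in each subset. It read 6.92, 6.46, 7.26 and 6.88 in ThPOK+ cells, 6.49, 6.15, 6.73 and 6.47 in CD8a- cells, and 7.10, 6.47, 7.04 and 6.79 in CD8a+ cells. In each of the 4 sets the CD8a- array was the lowest of the 3, and 8.48% of all genes were lower than in ThPOK+ cells and 6.98% lower than in CD8a+ cells in 4 of 4 sets, although the subsets overlapped across sets. The CD8a- cells differed from ThPOK+ cells by -0.42 ± 0.14 (limma adjusted p = 0.424), and CD8a+ from CD8a- cells by 0.39 ± 0.14 (limma adjusted p = 0.895). A second kept probe of Pfkm gave 0.08 in place of -0.42 and -0.21 in place of 0.39, so that the probes disagree. Pfkl, the liver form, had means of 6.66, 6.56 and 6.52 in ThPOK+, CD8a- and CD8a+ cells, and differed far more between replicate numbers, at 5.81 on average in replicate 1 and 7.35 in replicate 2. A second kept Pfkl probe, detected on 6 arrays, went the other way. It read 6.57 to 7.15 in replicate 1 and 5.43 to 6.42 in replicate 2.

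The middle and lower pathway turns the split sugar into pyruvate. Aldoa (aldolase), Gapdh, Eno1 (enolase) and Pkm2 (pyruvate kinase) had log2 differences of -0.17 to 0.05 between CD8a+ and ThPOK+ cells, and every 95% interval of these 4 lay between -0.61 and 0.42. Pgam1, which moves the phosphate of phosphoglycerate, read 6.63, 7.22, 6.28 and 6.87 in ThPOK+ cells, 6.63, 7.22, 6.40 and 7.65 in CD8a- cells, and 6.44, 8.11, 6.65 and 7.74 in CD8a+ cells. Both replicate 2 CD8a+ arrays were the highest of all, and both replicate 1 CD8a+ arrays lay among the lower ones. The difference between CD8a+ and ThPOK+ cells was 0.48 ± 0.22 (limma adjusted p = 0.526), and it was 0.311 without WT CD8a+ replicate 2. Tpi1, which interconverts the triose sugars, was highest on the WT CD8a+ replicate 2 array (10.09) and the WT ThPOK+ replicate 1 array (9.85), the same arrays on which the epithelial markers were highest.

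Further genes decide the fate of pyruvate. Ldha, which turns pyruvate into lactate, read 10.22, 10.06, 9.82 and 10.13 in ThPOK+ cells, 9.98, 9.26, 9.64 and 9.62 in CD8a- cells, and 9.79, 9.73, 9.50 and 9.32 in CD8a+ cells. All 4 ThPOK+ arrays lay above all 4 CD8a+ arrays, the lone member with no overlap in that comparison, where 1.48% of all genes had none in that direction and 8.71% were lower in 4 of 4 sets. The difference was -0.47 ± 0.17, 0.722-fold with a 95% interval of -0.86 to -0.08 on the log2 scale, and did not pass (limma adjusted p = 0.39). The CD8a- cells differed from ThPOK+ cells by -0.43 ± 0.17 (limma adjusted p = 0.524), by -0.287 without WT CD8a- replicate 2, and were lower in 4 of 4 sets. CD8a+ and CD8a- cells differed by -0.04 ± 0.17, with an interval of -0.43 to 0.35.

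Pdk1 shuts pyruvate dehydrogenase and so keeps pyruvate out of mitochondria. It read 6.28, 7.34, 6.87 and 7.16 in ThPOK+ cells, 6.25, 7.12, 6.22 and 5.96 in CD8a- cells, and 6.30, 6.54, 5.84 and 6.74 in CD8a+ cells. The first WT set was level across the subsets, and in the other 3 sets the ThPOK+ array was the highest. The difference between CD8a+ and ThPOK+ cells was -0.56 ± 0.25 (limma adjusted p = 0.52) and that between CD8a- and ThPOK+ cells -0.52 ± 0.25 (limma adjusted p = 0.602).

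Slc16a3, the transporter that lets lactate out of the cell, was detected on 5 of 12 arrays. It read 5.76, 5.62, 5.50 and 5.59 in ThPOK+ cells, 5.86, 6.73, 5.97 and 5.99 in CD8a- cells, and 5.72, 5.85, 5.84 and 6.04 in CD8a+ cells. All CD8a- arrays lay above all ThPOK+ arrays, where 1.38% of all genes did so. A detected signal was on 1 of the 4 ThPOK+ arrays and 2 of the 4 CD8a- arrays, and the other probes of Slc16a3 were detected on 0 of 12 arrays. The difference between CD8a- and ThPOK+ cells was 0.52 ± 0.19 (limma adjusted p = 0.505), and 0.322 without WT CD8a- replicate 2. That between CD8a+ and CD8a- cells was -0.28 ± 0.19 (limma adjusted p = 0.898), and -0.0757 without the same array.

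**Figure D2:**
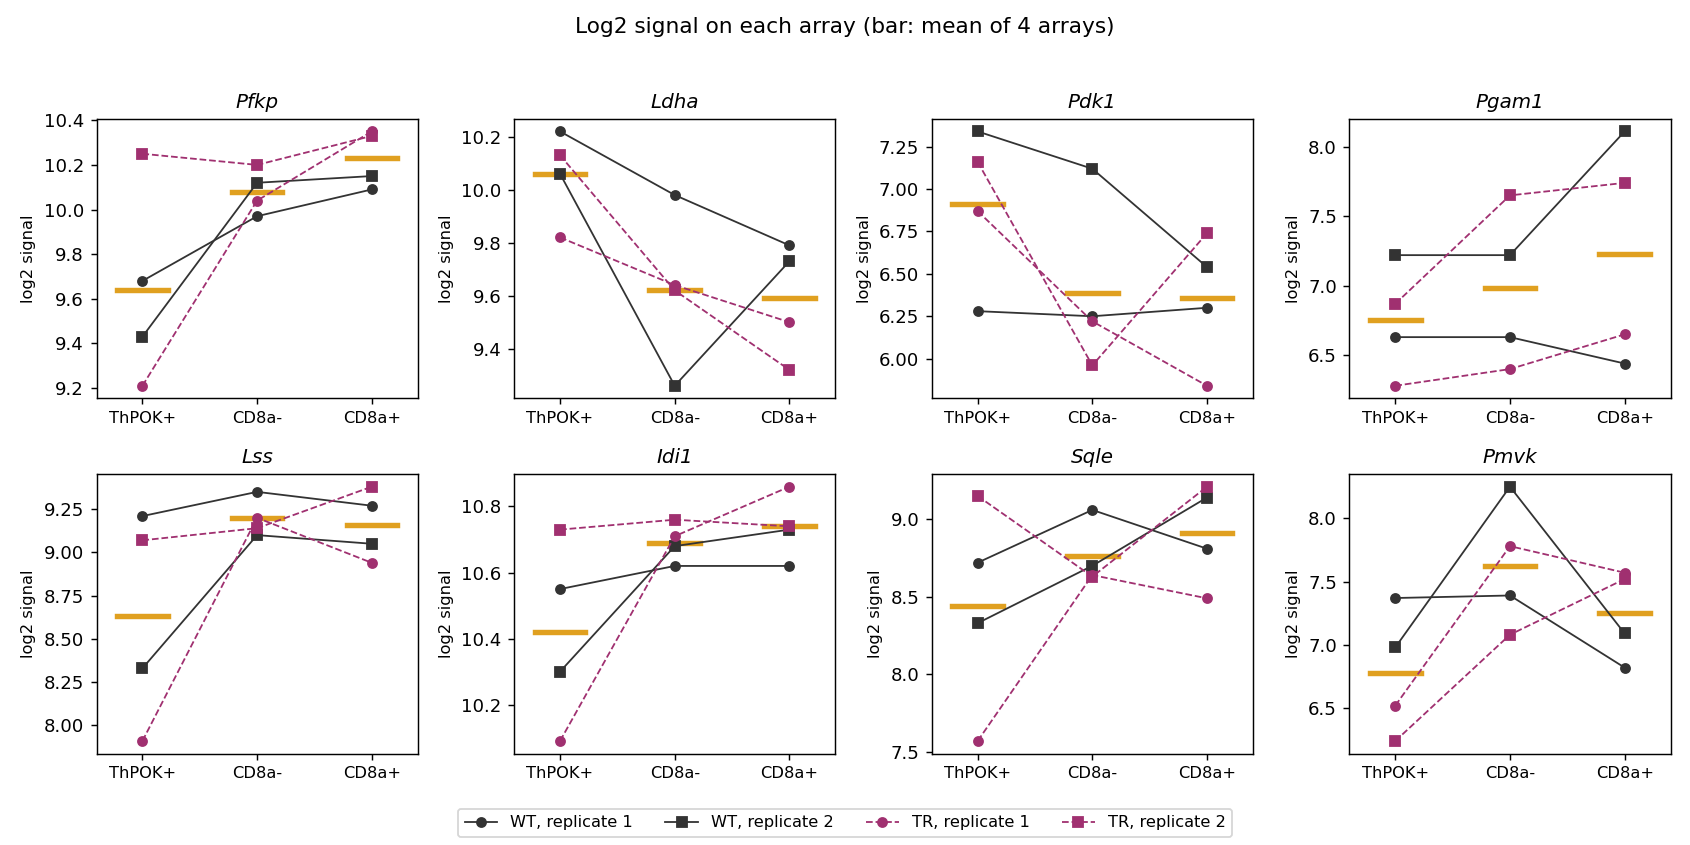
Normalized log2 signal (y axis) of 4 glycolysis genes (top) and 4 sterol genes (bottom) in the 3 subsets (x axis). Each point is 1 array, lines join the arrays of 1 host and replicate, and yellow bars are means of 4 arrays. Ldha arrays of ThPOK+ cells all lie above those of CD8a+ cells, and for Lss, Idi1 and Sqle the TR ThPOK+ replicate 1 array lies lowest.

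More sterol genes lay above 0 than below it against ThPOK+ cells. Their median log2 difference between CD8a+ and ThPOK+ cells was 0.159, with 10 genes above 0 and 4 below, from -0.30 for Srebf2 to 0.53 for Lss, where 50.6% of all genes were above 0. Between CD8a- and ThPOK+ cells the median was 0.247, again with 10 above 0 and 4 below, from -0.37 to 0.92, where 50.9% of all genes were above 0. Between CD8a+ and CD8a- cells it was -0.0231, with 5 above 0 and 9 below, from -0.60 to 0.30. With 1 array left out the first of these medians ran from 0.0638 (without TR ThPOK+ replicate 1) to 0.276 (without WT CD8a+ replicate 2), and the second from 0.0763 (without WT CD8a- replicate 2) to 0.358, with 0.129 without TR ThPOK+ replicate 1. The third ran from -0.136 to 0.0776 and was above 0 when WT CD8a- replicate 2 was left out, or the CD8a+ array of WT replicate 1. The interval lay within a doubling either way for 9, 10 and 11 of the 14 genes in these comparisons. By set, the median of the sterol genes between CD8a+ and ThPOK+ cells was 0.0765 and 0.0805 in the WT sets and 0.371 and 0.0415 in the TR sets, so that the first TR set was the one that stood apart. Between CD8a- and ThPOK+ cells the set medians were 0.0323 and 0.471 in WT and 0.251 and -0.162 in TR, which differ in sign.

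In the first steps, Pmvk adds the second phosphate to mevalonate. It was detected on 11 arrays and read 7.37, 6.98, 6.52 and 6.24 in ThPOK+ cells, 7.39, 8.25, 7.78 and 7.08 in CD8a- cells, and 6.82, 7.09, 7.57 and 7.52 in CD8a+ cells. The CD8a- array was above the ThPOK+ array in all 4 sets, as for 9.58% of all genes, by 0.02 to 1.27, and the groups overlapped. The CD8a- difference was 0.85 ± 0.32, or 1.80-fold (limma adjusted p = 0.506), and the CD8a+ difference 0.47 ± 0.32 (limma adjusted p = 0.7). With TR CD8a+ replicate 2 left out the latter was 0.20, with TR ThPOK+ replicate 1 left out 0.307, and with WT ThPOK+ replicate 1 left out it was 0.78.

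Idi1 makes the reactive isoprene unit that later steps join. It read 10.55, 10.30, 10.09 and 10.73 in ThPOK+ cells, 10.62, 10.68, 10.71 and 10.76 in CD8a- cells, and 10.62, 10.73, 10.86 and 10.74 in CD8a+ cells. The ThPOK+ arrays lay below all other arrays except for TR replicate 2, which lay among them, so that the subsets overlapped. The difference between CD8a+ and ThPOK+ cells was 0.32 ± 0.16 (limma adjusted p = 0.577), higher in 4 of 4 sets, and its interval was -0.05 to 0.69. Mvd, which removes a carboxyl group just before this step, was detected on 5 arrays, and its subset means were 5.59 to 5.66.

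Fdps joins isoprene units into farnesyl pyrophosphate. It read 8.37, 6.64, 7.11 and 8.12 in ThPOK+ cells, 8.48, 8.95, 8.76 and 7.74 in CD8a- cells, and 8.23, 6.81, 8.68 and 7.95 in CD8a+ cells. Its arrays spread widely in ThPOK+ cells (SD 0.82) and CD8a+ cells (SD 0.80), and the subsets overlapped. The difference between CD8a- and ThPOK+ cells was the highest among the members at 0.92 ± 0.45 (limma adjusted p = 0.607), and it was 0.43 without WT CD8a- replicate 2 and 0.60 without TR ThPOK+ replicate 1.

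Sqle oxidizes squalene and Lss folds the product into lanosterol, the first sterol. Sqle read 8.72, 8.33, 7.57 and 9.15 in ThPOK+ cells, 9.06, 8.70, 8.64 and 8.63 in CD8a- cells, and 8.81, 9.14, 8.49 and 9.21 in CD8a+ cells. It was higher in CD8a+ than in ThPOK+ cells in 4 of 4 sets, by 0.07 to 0.92, with overlap across sets. The difference was 0.47 ± 0.25 (limma adjusted p = 0.577), it was 0.27 without TR ThPOK+ replicate 1, and a second probe gave -0.07. Lss read 9.21, 8.33, 7.91 and 9.07 in ThPOK+ cells, 9.35, 9.10, 9.20 and 9.14 in CD8a- cells, and 9.27, 9.05, 8.94 and 9.38 in CD8a+ cells. The ThPOK+ array was the lowest of the 3 in every set, and only WT replicate 2 and TR replicate 1 of the ThPOK+ arrays lay below all arrays of the other subsets. Lss differed by 0.53 ± 0.21 between CD8a+ and ThPOK+ cells (limma adjusted p = 0.453), the smallest adjusted p of the sterol genes there, and by 0.57 ± 0.21 between CD8a- and ThPOK+ cells (limma adjusted p = 0.512).

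Lss, Idi1 and Sqle were the 3 sterol genes higher in CD8a+ than in ThPOK+ cells in 4 of 4 sets, and 9.04% of all genes were. For all 3 the array of TR ThPOK+ replicate 1 was the lowest of the 12, and in that set the difference was 1.02, 0.77 and 0.92. In the second TR set it was 0.31, 0.02 and 0.07. Without the TR ThPOK+ replicate 1 array the difference over the sets was 0.329 for Lss and 0.185 for Idi1, and that of Lss between CD8a- and ThPOK+ cells was 0.365.

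Later enzymes finish the sterol ring. Sc4mol, a methyl oxidase, read 7.52, 8.17, 7.60 and 8.21 in ThPOK+ cells, 7.12, 7.67, 7.17 and 8.06 in CD8a- cells, and 7.67, 7.50, 7.47 and 8.57 in CD8a+ cells. The CD8a- array was below the ThPOK+ array in all 4 sets, against 8.48% of all genes, and the CD8a- difference was -0.37 ± 0.19 (limma adjusted p = 0.616). CD8a+ and CD8a- cells differed by 0.30 ± 0.19 (limma adjusted p = 0.895), by 0.191 without TR CD8a+ replicate 2 and by 0.478 without WT CD8a+ replicate 2. Ebp, an isomerase of the ring, was detected on 7 arrays and read 6.39, 5.70, 6.56 and 6.15 in ThPOK+ cells, 6.11, 5.53, 6.38 and 6.52 in CD8a- cells, and 6.82, 5.66, 6.79 and 6.31 in CD8a+ cells. The second WT replicate was low in all 3 subsets, and CD8a+ and CD8a- cells differed by 0.26 ± 0.18 (limma adjusted p = 0.895). In the first WT set, omitting the CD8a+ array gave 0.145 and omitting the CD8a- array 0.147, and omitting TR CD8a- replicate 2 gave 0.409.

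Cyp51, a demethylase, had subset means of 8.11 to 8.23. Nsdhl, a dehydrogenase, had means of 7.71, 8.03 and 8.05 in ThPOK+, CD8a- and CD8a+ cells, and its 4 kept probes gave 0.34, 0.06, 0.38 and 0.50 between CD8a+ and ThPOK+ cells. Dhcr7, a late reductase, was detected on 5 arrays and Sc5d, a desaturase, on 2, of which none was from CD8a- cells, so no difference is given there.

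Srebf2, the factor that drives the sterol genes, was detected on 8 arrays and read 7.35, 6.98, 8.59 and 6.54 in ThPOK+ cells, 8.18, 7.79, 8.34 and 6.35 in CD8a- cells, and 7.53, 6.57, 7.98 and 6.18 in CD8a+ cells. It was lower in CD8a+ than in CD8a- cells in 4 of 4 sets, where 7.43% of all genes were, by -0.60 ± 0.23 (limma adjusted p = 0.895), and the subsets overlapped. Against ThPOK+ cells it was -0.30 ± 0.23 in CD8a+ cells (limma adjusted p = 0.739) and 0.30 ± 0.23 in CD8a- cells (limma adjusted p = 0.765). With 1 array left out the CD8a+ value ran from -0.469 (WT ThPOK+ replicate 1) to -0.158 (TR ThPOK+ replicate 1), and omitting WT CD8a+ replicate 2 gave -0.179. Insig1, the brake on Srebf2, had means of 11.26, 11.48 and 11.38 in ThPOK+, CD8a- and CD8a+ cells, with 4 probes between -0.07 and 0.25 for CD8a+ against ThPOK+ cells.

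**Figure D3:**
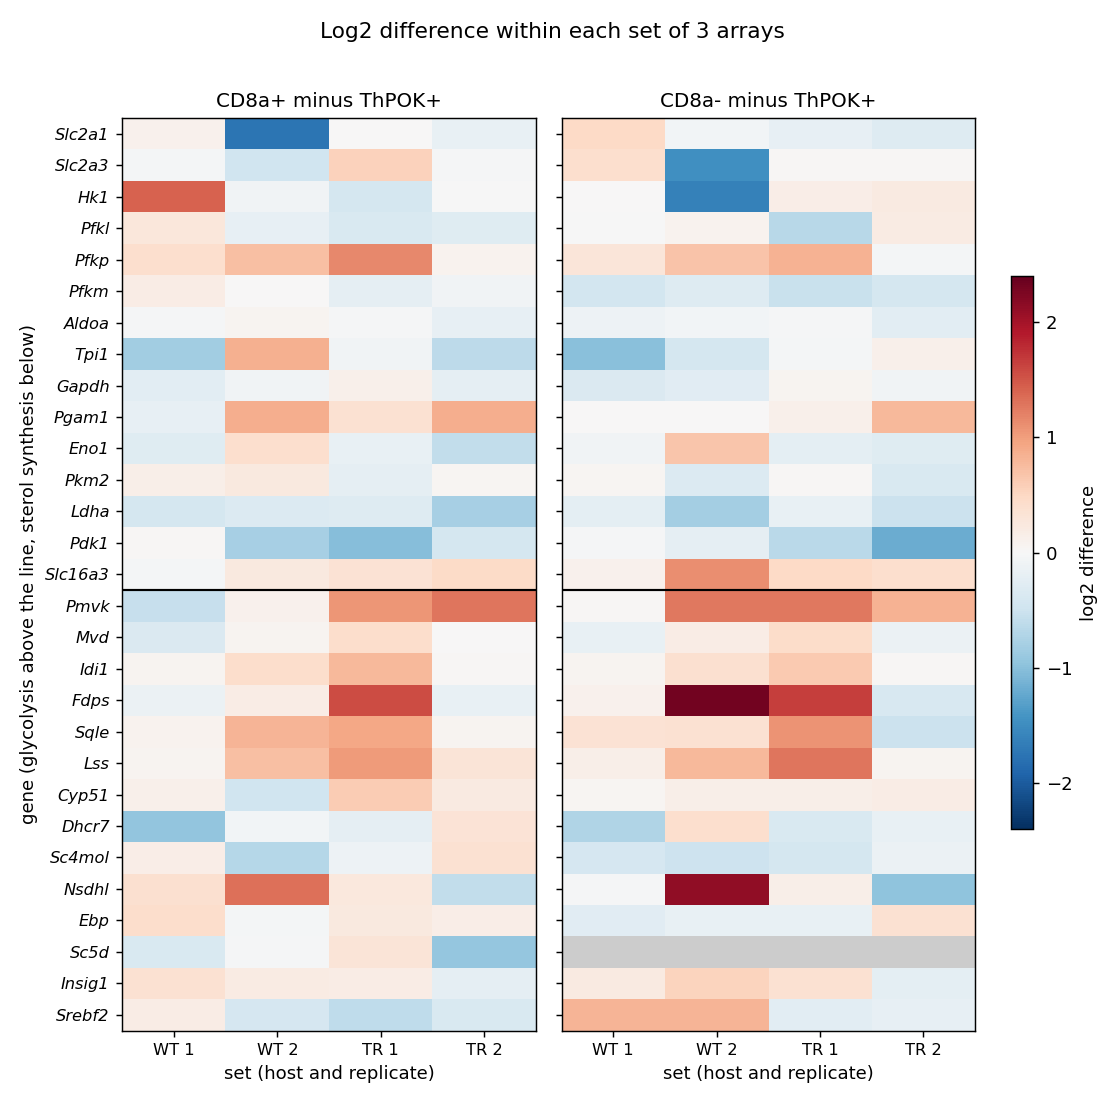
Log2 difference within each set of 3 arrays (columns; host and replicate) for each measured member (rows), for CD8a+ minus ThPOK+ (left) and CD8a- minus ThPOK+ (right). Red is higher and blue lower than ThPOK+ cells, and grey marks Sc5d, which was detected on no CD8a- array. Ldha is below 0 in all 8 columns and Lss and Idi1 above 0 in all 8, while Slc2a1 owes its deepest colour to a single set. Both panels subtract the same ThPOK+ arrays, and the share of all genes with 1 sign in all 8 columns was not counted.

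The wider pathways were described from 5 further lists of genes, which had 44 genes measured of 65. In CD8a+ against ThPOK+ cells 1 of the 44 passed, Hif1a. The factor Hif1a turns on glycolysis genes when oxygen is short and is known to favour the Th17 type of helper cell. It was detected on all 12 arrays by its 1 probe and read 8.71, 9.81, 8.89 and 8.59 in ThPOK+ cells, 8.10, 8.0, 7.98 and 7.99 in CD8a- cells, and 7.26, 8.09, 7.65 and 7.39 in CD8a+ cells. All 4 ThPOK+ arrays lay above all 8 others, and 1.3% of all genes did so against CD8a- cells. Hif1a fell in CD8a+ cells by 1.40 on the log2 scale (SE 0.21, 0.378-fold, limma adjusted p = 0.0279), with 33 of 10612 genes (0.311%) lower at the threshold. In the 4 sets it differed by -1.44, -1.72, -1.24 and -1.21. The CD8a- cells differed from ThPOK+ cells by -0.98 ± 0.21, which did not pass (limma adjusted p = 0.162), and CD8a+ from CD8a- cells by -0.42 ± 0.21 (limma adjusted p = 0.895).

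Hif1a kept its direction with each array left out, while the call depended on single arrays. Leaving out any 1 array gave -1.21 to -1.50, and the call was lost when any CD8a+ array, any TR CD8a- or TR ThPOK+ array, or WT ThPOK+ replicate 2 was left out (limma adjusted p 0.0561 to 0.113). It was kept without WT ThPOK+ replicate 1 (0.0487) and without either WT CD8a- array. With the epithelial markers as a covariate Hif1a was -1.38 (limma adjusted p = 0.0319), and without the set block the adjusted p was 0.285. With the replicate number alone as the block the call was also lost (limma adjusted p = 0.0526).

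Of the other glycolysis genes 14 of 23 were measured, and their median was -0.102. Pfkfb3, which makes the activator of phosphofructokinase, read 6.28, 7.85, 6.20 and 6.72 in ThPOK+ cells, 5.49, 6.26, 5.71 and 5.35 in CD8a- cells, and 5.80, 6.74, 5.89 and 5.14 in CD8a+ cells. In each set the ThPOK+ array was the highest. Of all genes, 8.71% were lower in CD8a+ and 8.48% lower in CD8a- than in ThPOK+ cells in 4 of 4 sets. Pfkfb3 was detected on 4 of 4 arrays in ThPOK+, 1 of 4 in CD8a- and 2 of 4 in CD8a+ cells. Its difference was -0.87 ± 0.23 in CD8a+ cells (limma adjusted p = 0.185) and -1.06 ± 0.23 in CD8a- cells (limma adjusted p = 0.164). Pdk4, a relative of Pdk1, was detected on 3 arrays, none of them CD8a+, and no fold is given. All 7 pentose phosphate genes were measured with a median of 0.135 and 0 passed, the nearest being Rpe, Tkt and Taldo1 at 0.43 ± 0.23, 0.28 ± 0.19 and 0.29 ± 0.29 (limma adjusted p of 0.594 or more). Without WT CD8a+ replicate 2 these were 0.252, 0.165 and -0.0476, and without WT ThPOK+ replicate 2 Tkt was 0.0881 and Taldo1 0.0264.

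Of the other sterol genes 14 of 18 were measured, with a median of 0.141, 12 above 0 and 2 below, and 0 passed. Srebf1, the relative of Srebf2 that mainly drives fatty acid synthesis, read 8.64, 7.44, 7.41 and 8.05 in ThPOK+ cells, 8.62, 7.80, 8.55 and 8.56 in CD8a- cells, and 8.88, 7.90, 8.55 and 8.93 in CD8a+ cells. It was higher in CD8a+ than in ThPOK+ cells in 4 of 4 sets, as were 9.04% of all genes, by 0.24 to 1.14, with overlap between the groups. The difference was 0.68 ± 0.20 (limma adjusted p = 0.241), and a dimmer second probe gave -0.12. Scap, the escort of the Srebf proteins, differed by 0.53 ± 0.25 (limma adjusted p = 0.534). In the second WT set, omitting the CD8a+ array gave 0.279 and omitting the ThPOK+ array 0.318.

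Cholesterol that is not needed is stored as esters or exported, and 4 of 10 genes of these steps were measured, of which 0 passed. Soat2, which esterifies cholesterol and is best known from gut and liver, read 6.41, 5.40, 5.27 and 5.62 in ThPOK+ cells, 7.29, 7.63, 7.14 and 6.97 in CD8a- cells, and 7.09, 6.12, 7.36 and 6.93 in CD8a+ cells. All CD8a- arrays lay above all ThPOK+ arrays, as for 1.38% of all genes, and 1 of the ThPOK+ arrays had a detected signal. The difference was 1.58 ± 0.30 in CD8a- cells (limma adjusted p = 0.113) and 1.2 ± 0.30 in CD8a+ cells (limma adjusted p = 0.161), and a second, dimmer probe gave -0.12 and 0.22. On the WT arrays, in replicates 1 and 2, the epithelial mean was 9.66 and 7.49 in ThPOK+ cells, 7.13 and 6.14 in CD8a- cells and 7.50 and 9.34 in CD8a+ cells. Within each WT subset the array with the higher Soat2 signal was the one with the higher epithelial mean in ThPOK+ cells and the one with the lower mean in CD8a- and CD8a+ cells, and the part of epithelium in the Soat2 signal was not tested.

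Apoe, a carrier of lipids, was detected on all 4 ThPOK+ arrays and on no CD8a+ array, and its difference did not pass (limma adjusted p = 0.502). Set against the limit of detection, its mean was 1.29-fold brighter in ThPOK+ cells. This value sets the bright mean against the dimmest signal still detected on each dim array, or the probe's own signal where that is higher. It takes no account of the spread between arrays, so the true fold may be smaller. Nr1h2, a sterol-sensing receptor, differed by 0.22 ± 0.37 (limma adjusted p = 0.901). Of 7 fatty acid synthesis genes 5 were measured and 0 passed. Elovl6, which lengthens fatty acids, read 5.59, 5.59, 6.08 and 6.0 in ThPOK+ cells, 6.31, 6.46, 6.60 and 6.29 in CD8a- cells, and 6.48, 6.33, 6.46 and 6.18 in CD8a+ cells. All ThPOK+ arrays lay below all others, where 1.57% of all genes did so against CD8a+ cells, and it was detected on 6 of 12 arrays. Its difference was 0.55 ± 0.16 in CD8a+ cells (limma adjusted p = 0.251) and 0.60 ± 0.16 in CD8a- cells (limma adjusted p = 0.29). Fasn, the fatty acid synthase, differed by -0.40 ± 0.25 (limma adjusted p = 0.681) and Scd2, a desaturase, by 0.28 ± 0.25 (limma adjusted p = 0.782) in CD8a+ cells. With 1 array left out Fasn ran from -0.607 (without WT ThPOK+ replicate 1) to -0.184 (leaving out the ThPOK+ or the CD8a+ array of WT replicate 2), and Scd2 from 0.132 (without TR ThPOK+ replicate 2) to 0.421 (without WT ThPOK+ replicate 1).

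**Figure D4:**
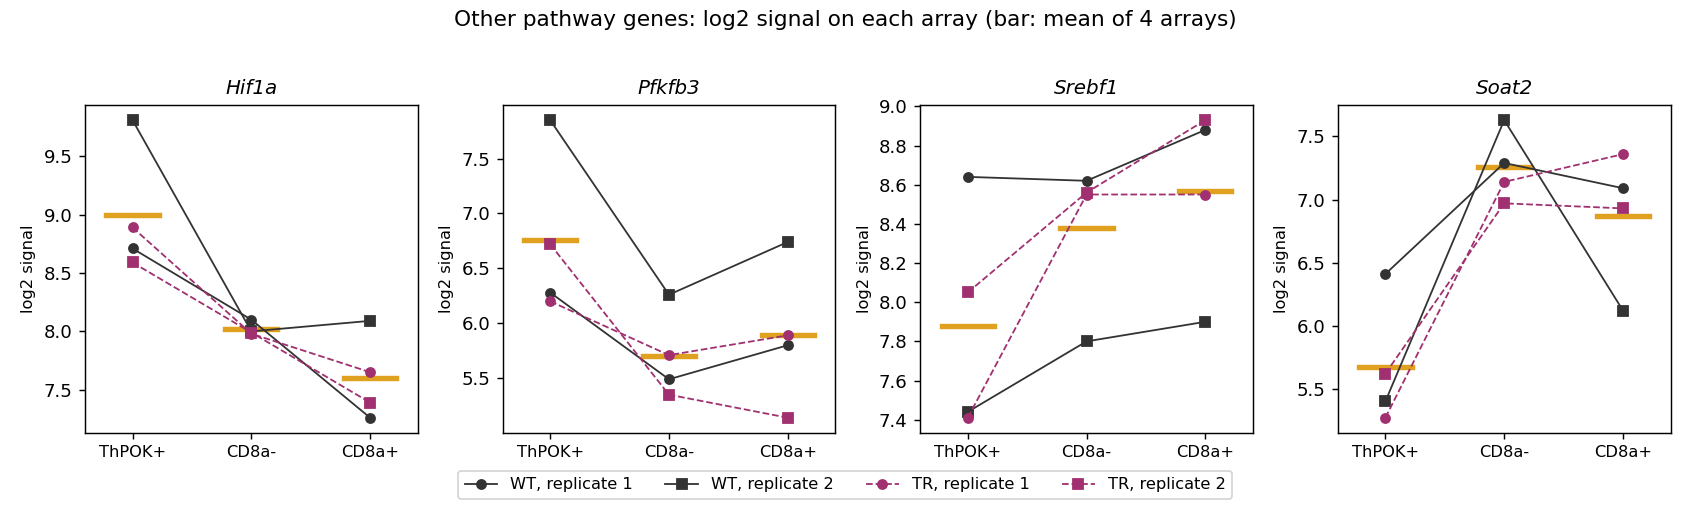
Normalized log2 signal (y axis) of Hif1a, Pfkfb3, Srebf1 and Soat2 in the 3 subsets (x axis). Each point is 1 array, lines join the arrays of 1 host and replicate, and yellow bars are means of 4 arrays. The 4 ThPOK+ arrays of Hif1a lie above the other 8, and Hif1a in CD8a+ against ThPOK+ cells is the one difference of the 4 genes that passed.

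A comparison of hosts asks whether cells of the colitis model differ from those of the undisturbed gut. Its labels are in conflict. Replicate 2 holds the same values for each host in both deposited tables, while the values of replicate 1 match only when its hosts are exchanged. Values with the hosts of replicate 1 exchanged are therefore given too. Between TR and WT over the 3 subsets 0 members passed and 0% of all genes did (1152 genes, 10.9%, at an unadjusted limma p under 0.05), and with the hosts exchanged 0 members and 12 of all genes did.

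Glycolysis genes differed between hosts by -0.92 (Tpi1, limma adjusted p = 0.314) to 0.46, and by -0.28 to 0.88 when exchanged. Sterol genes differed by -0.20 to 0.42, and by -0.69 (Srebf2) to 0.48 when exchanged. Under the intensity table's names Tpi1 was lower in TR in all 6 pairs of arrays, as were the epithelial markers, whose part in this was not tested. In replicate 2, whose labels agree in both tables, the TR array was above the WT array in all 3 subsets for 6 glycolysis genes, Slc2a1, Slc2a3, Pfkp, Pfkm, Gapdh and Eno1, and below it for Pfkl and Tpi1. The same held for 5 sterol genes, Mvd, Idi1, Lss, Sc4mol and Ebp, and Srebf2 was below in all 3. These are single arrays, so the differences have no replicate check. The share of all genes with such a pattern was not counted, and arrays of 1 set may share an effect. The counts therefore show nothing particular to these pathways. Whether the difference between CD8a+ and ThPOK+ cells depends on the host was tested as an interaction, in which 0 members and 0% of all genes passed. The other subset differences were not tested in this way. At an unadjusted limma p under 0.05 were 350 genes (3.3%), with 1 member, Pmvk, among them. With the hosts of replicate 1 exchanged, 0 members were under that limit, and the smallest limma adjusted p of a member was 0.992.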

How the data were processed

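RNA of sorted CD4 intraepithelial T cells was amplified, biotin-labelled and hybridised to Illumina MouseRef arrays, per the labels' protocols. The authors deposited mean bead intensity per probe with no normalization, exported from GenomeStudio 1.0.6, per the file headers. That deposited table also gives a detection score, a fraction read as 1 minus a detection p-value, and bead counts per probe (median 36 to 41 per array). A deposited table of log2 values served only to compare host labels; it was found to hold raw log2 signals shifted per array and centred within each set of 3 arrays.

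Intensities were corrected and quantile-normalized with neqc (offset 16) in limma 3.58.1 (R 4.3.3). A detection p under 0.05 on at least 2 arrays was met by 14635 of 25697 probes, and the brightest per gene left 10612 genes. Of all probes, 20736 carried a current symbol, 3841 an older one that was mapped, and 1120 kept the file's name.

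Subset comparisons used 3 subset means and the 4 sets as a block (6 residual degrees of freedom), the host fit subset, host and replicate (7), and the interaction 6 group means and replicate (5). Tests were two-sided, p-values were adjusted by Benjamini and Hochberg, the threshold was 0.05, and the fits were tested on simulated data. Differences between replicates correlated above 0.1 in 15 of 15 pairs of groups (0.356 to 0.657), so arrays of 1 replicate number shared an effect. Pairs of groups from different hosts are among these, so the correlation cannot show that the arrays of 1 set belong together. The labels give no common day or animal, so the set block is an assumption.

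The members and lists were chosen with earlier results of these data known. Named with values were the 5 members of each pathway with the smallest p between CD8a+ and ThPOK+ cells, the 3 with the smallest p in each of the other 2 subset comparisons, and of each other list the genes past the threshold and the 3 with the smallest p. The lists were other glycolysis, pentose phosphate, other sterol, sterol efflux and esterification, and fatty acid synthesis genes. A gene that this rule picks from these lists is not reported here. Members shown otherwise were named after their values were seen. Alternatives changed the offset, background, scaling, filter, probe rule, block, arrays and an epithelial covariate.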

Additional observations from a re-analysis of the deposited data

Results flagged for a closer look

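Among 87 groups of 4 arrays, 1 for each measured member in each subset, 7 held an array far from the other 3, with a gap to the nearest, as a share of the whole range, above Dixon's 95% critical value. Chance gives about 1 in 20 such groups. No cause of any of these was tested.

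In glycolysis, Gapdh was 9.66 on the array of TR CD8a+ replicate 1, with the other CD8a+ arrays at 9.84 to 9.86. Pkm2 was 9.50 on TR ThPOK+ replicate 1, with the others at 9.74 to 9.79. Slc16a3 was 6.73 on WT CD8a- replicate 2, with the others at 5.86 to 5.99. Without that array the Slc16a3 difference between CD8a- and ThPOK+ cells was 0.322 in place of 0.52.

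In sterol synthesis, Sqle was 9.06 on WT CD8a- replicate 1 (others 8.63 to 8.70) and Cyp51 was 8.56 on WT CD8a- replicate 2 (others 8.11 to 8.13). Nsdhl was 6.55 on WT ThPOK+ replicate 2, against 7.98 to 8.15 on the other ThPOK+ arrays. Sc5d was 6.29 on TR ThPOK+ replicate 2, which did not detect it, against 5.44 to 5.57 on the other ThPOK+ arrays.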

How the results depend on the processing

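No member passed the threshold in any of the 5 comparisons under any alternative that was fitted. Of 932 alternative values of 39 differences, 909 kept direction and side of the threshold, 14 lost the call (all of them Hif1a) and 9 reversed. None of the reversed values had passed. Within replicate 1 Slc2a1 was 0.0578, Tkt -0.0228, Scap -0.0431, Nr1h2 -0.314 and Fasn 0.215 between CD8a+ and ThPOK+ cells, and within replicate 2 Ebp was -0.0418 between CD8a+ and CD8a- cells. Leaving out 1 array gave -0.0476 to 0.546 for Taldo1 and -0.27 to 0.472 for Nr1h2, both turned without WT CD8a+ replicate 2, and Nr1h2 also without WT ThPOK+ replicate 2.

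The glycolysis median between CD8a+ and ThPOK+ cells was -0.134 to -0.0101 with 1 array left out, the lowest without TR CD8a+ replicate 1, and the sterol median was 0.0638 to 0.276. With detection on at least 6 arrays the sterol median was 0.318, over fewer genes. The sterol median between CD8a+ and CD8a- cells was -0.136 to 0.0776 with 1 array left out. The count of other glycolysis genes past the threshold between CD8a+ and ThPOK+ cells, 1 for Hif1a, was 0 to 1 with 1 array left out and 0 within replicate 1, within replicate 2, with no replicate block, with the replicate number alone as the block and with only the 8 arrays compared. Between CD8a- and ThPOK+ cells it was 1 with 75th percentile scaling. The replicate block changed no member's call.

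Of all genes, 60 passed between CD8a+ and ThPOK+ cells. The count was 93 with an offset of 50, 135 with no background correction, 100 with the mean of a gene's probes, 99 with the epithelial covariate, 3 and 0 within replicates 1 and 2, 4 with no replicate block, 29 with the replicate number alone as the block and 0 with only the 8 arrays compared, and 2 to 78 with 1 array left out (2 when TR ThPOK+ replicate 1 was the one omitted, 5 when TR CD8a+ replicate 1 was). Of the 12 omissions of 1 array, those of WT ThPOK+ replicate 1, WT CD8a- replicate 2 and WT CD8a+ replicate 1 left it within 1.5 times of 60, as did 75th percentile scaling (83), no filter on detection (43) and detection on at least 6 arrays (88). The 6 between CD8a- and ThPOK+ cells became 26, 40, 28 and 22 with the offset, no background correction, 75th percentile scaling and probe means, 16 with detection on at least 6 arrays, 3 and 0 within replicates 1 and 2, 1 with no replicate block, 0 with only the 8 arrays, and 0 to 14 with 1 array left out, of which the omission of WT CD8a+ replicate 1 alone left it within 1.5 times of 6. The 0 between hosts became 1 with no background correction, 1 with 75th percentile scaling, 4 with detection on at least 6 arrays, 3 with probe means, 17 and 2 within replicates 1 and 2, 12 with hosts exchanged, and 0 to 2 with 1 array left out (2 without either WT CD8a- array). The cause of these shifts was not tested.

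The interaction could not be fitted within 1 replicate number, since no residual degrees of freedom were left. The BeadChip as a block was not run because the headers used here name no chip, and the deposited log2 table was not run as an alternative because its rows carry other probe identifiers. Detection limits the dimmer genes: 14 of the 29 members were not detected on every array, and replicate 2 detected fewer probes.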
